A study of Mus musculus with 12 samples.

Results

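The genes described here are 10 genes known from the oocyte: the transcription factor genes Lhx8, Figla and Nobox, and the egg genes Dppa3, Gdf9, Zp3, Npm2, Nlrp14, Padi6 and Oosp1. Each probe set (a group of short probes against 1 transcript) annotated to exactly 1 of these genes was taken, which gave 9 probe sets, 1 for each of 9 genes, among 45037 non-control probe sets. No probe set used here carried the name Npm2, so Npm2 was not analysed. RNA was measured in whole testes of mice at postnatal day 7 on 12 Affymetrix arrays, 4 in each of 3 groups: wild type, Sohlh1-/- and Sohlh2-/-. All groups share a background labelled C57BL/6, 129S5, SvEvBrd hybrid. Each array held RNA pooled from 3 testes of different animals, so the spread between arrays is a spread between pools. The p-values weigh group differences against an estimate of that spread. The labels do not describe how either allele was made or whether pools shared litters.

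SOHLH1 and SOHLH2 are transcription factors of the helix-loop-helix family, found in spermatogonia of the testis and in young oocytes of the ovary. In the newborn ovary they are needed for oocytes to survive and form follicles, and they act there with the LIM homeobox factor LHX8, the helix-loop-helix factor FIGLA and the homeobox factor NOBOX, which switch on genes of the growing oocyte. Helix-loop-helix factors bind the E-box, a short DNA motif, and FIGLA is known for activating the genes of the egg coat through it. A testis at this age holds spermatogonia among Sertoli, Leydig and peritubular muscle cells, and no oocytes.

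The sequence before the start of 2 members is shown because it differs in the motif that helix-loop-helix factors bind. RefSeq promoter windows of build GRCm38.p6 were at hand for 6 of the 10 genes, and the 250 bases before each start site were searched on both strands for CANNTG, which is the general E-box, and for CACGTG, a form of it that also counts as a match of the general motif. The cores bound by homeobox factors, TAATTG and also the palindrome TAATTA, were searched too, as was the TATA box, TATAAA. Sequences are written 5′ to 3′ on the gene's own strand, with E-box matches in capitals. Lhx8 lies on the minus strand and its window is chr3:154330561-154330810. Zp3 lies on the plus strand and its window is chr5:135979855-135980104.
Lhx8: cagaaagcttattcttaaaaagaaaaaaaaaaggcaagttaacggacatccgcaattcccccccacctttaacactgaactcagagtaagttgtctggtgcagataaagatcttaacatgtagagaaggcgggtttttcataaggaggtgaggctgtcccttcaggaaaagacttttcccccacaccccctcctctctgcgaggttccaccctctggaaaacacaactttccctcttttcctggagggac
Zp3: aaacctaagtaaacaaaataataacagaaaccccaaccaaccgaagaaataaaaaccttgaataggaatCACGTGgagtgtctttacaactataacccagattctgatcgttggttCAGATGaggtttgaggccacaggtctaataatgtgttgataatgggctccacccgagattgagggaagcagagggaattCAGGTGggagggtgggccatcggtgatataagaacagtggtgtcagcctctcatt
The Lhx8 window held no E-box, as did 33.8% of all 32851 windows of that length. The Zp3 window held 3, with the first at -181 to -176 from the start site being CACGTG, a form found in 6.02% of windows. An E-box of any form was in 66.2% of windows and 31.8% held 2 or more, so its presence is common.

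The windows of the other 4 genes also held E-boxes: 2 each for Figla, Nobox and Padi6 and 5 for Oosp1. Those of Figla and Nobox lie inside the span annotated for the gene, and only the stretch around each motif is shown. The Figla stretch is chr6:86017010-86017039 on the plus strand, and those of Nobox are chr6:43309674-43309703 and chr6:43309587-43309616 on the minus strand.
Figla: ctcgcactCAGGTGcgtCAAGTGtgtcaca
Nobox, upstream: cagcccccacccCAGGTGtgcggtgcctcg
Nobox, near the start: gcagactccacaCACCTGgccaccccacgg
None of the 6 windows held a homeobox core or a TATA box. Of all windows 7.17% held TAATTG, while 4.84% held the palindrome TAATTA, and 12.4% held the TATA box. These are matches of letters in a window, not measured binding sites, and the arrays do not measure binding.

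**Figure D1:**
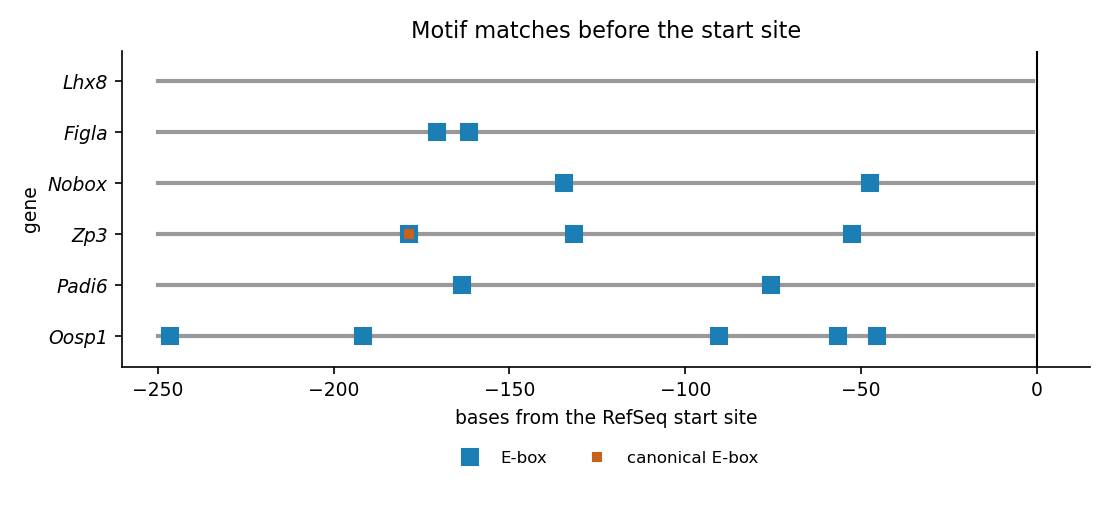
E-box matches in the 250 bases before the start site of the 6 genes with a RefSeq window, by distance from the start site in bases; blue squares are E-boxes of any form and the orange mark is the canonical form, CACGTG. Lhx8 has no match, Zp3 has the only canonical match, and Oosp1 has the most, with 5.

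Before the members' values, the targeted genes were checked in every array. Sohlh1 lay between 1125 and 1233 in wild type, at 104, 61.0, 50.2 and 595 in the Sohlh1 knockout group (labelled 2, 3, 4 and 5), and at 126, 465, 494 and 563 in the Sohlh2 knockout group (labelled 1, 3-1, 4 and 5). Sohlh2 lay between 885 and 1200 in wild type, at 1556, 1783, 1605 and 94.4 in the first group and at 1847, 157, 93.6 and 73.2 in the second. The arrays labelled Sohlh1 knockout 5 and Sohlh2 knockout 1 thus go against their labels, each with the targeted genes nearer to those of the other knockout, and every direction between the knockouts given here rests on labels that these arrays contradict. The ratio of 3' to 5' signals of the actin control, a sign of RNA quality, was 1.30 to 1.45 on 10 arrays, 2.10 on Sohlh1 knockout 2 and 3.56 on Sohlh2 knockout 1. Results are therefore also given without these arrays, and samples were kept in their labelled groups throughout.

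The filter value was a signal of 48.6, which is the 40th percentile over the non-control probe sets of all arrays. Testing required a signal above it on 4 or more of the 12 arrays, and a gene was called near background where its mean stayed below it in all 3 groups. By this rule 7 of the 9 measured genes were above background in at least 1 group, while Padi6 and Oosp1 were near it. Oosp1 did not pass the filter, which left 8 genes with a test. Signals are the deposited intensities, and fold changes are differences of log2(signal + 14.2), a scale that draws the changes of dim genes towards 0. Means are given with the SD over 4 arrays, and adjusted p-values come from limma over all 28694 probe sets tested. Signals of different probe sets cannot be compared with each other, so each gene is compared only between groups.

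**Figure D2:**
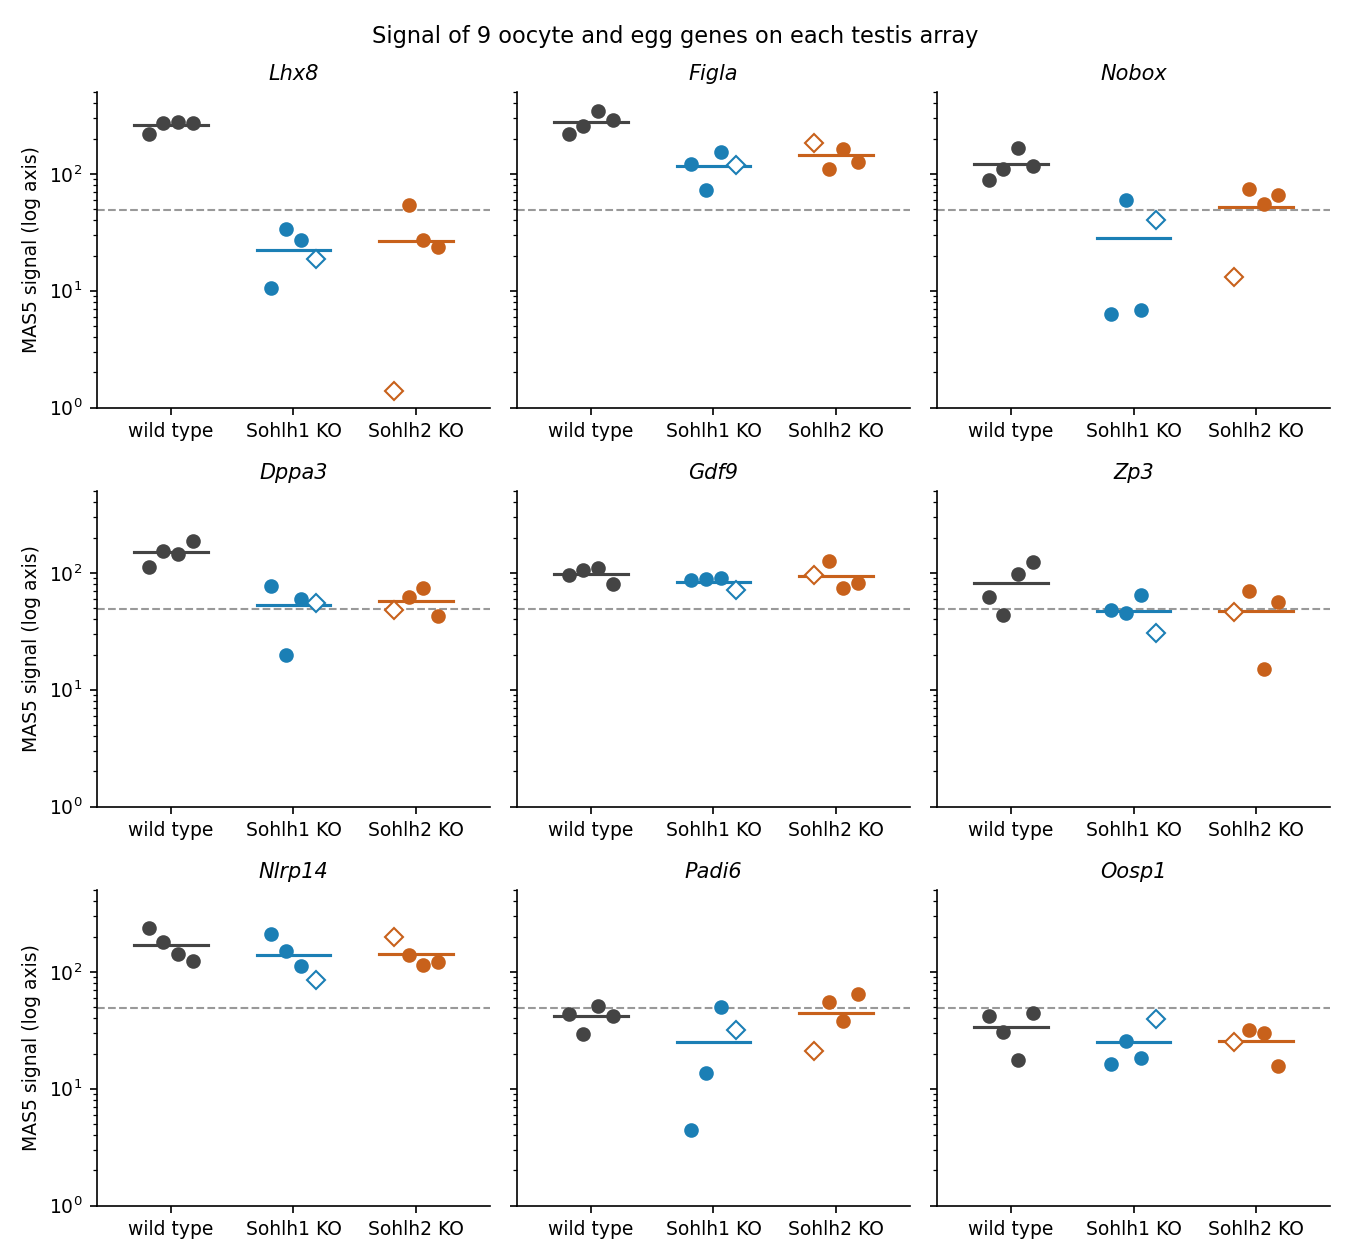
Signal of the 9 measured genes on each array by labelled group (log axis), with the group mean as a horizontal line and the filter value of 48.6 as a dashed line; open diamonds mark the arrays labelled Sohlh1 knockout 5 and Sohlh2 knockout 1. For Lhx8, Figla, Nobox and Dppa3 all 8 knockout arrays lie below the lowest wild-type array, and for the other 5 genes the groups overlap.

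Lhx8, Figla and Dppa3 fell in Sohlh1 knockout testis, and Lhx8 fell in Sohlh2 knockout testis. Figla and Dppa3 had lower means in Sohlh2 knockout too, without passing the test (limma adjusted p = 0.0696 and 0.0596). Nobox had lower means in both knockouts without passing the test. No member passed the test between the knockouts. Gdf9, Zp3, Nlrp14 and Padi6 did not pass the test in either knockout. Less RNA in a whole testis can come from fewer cells that make it or from less RNA in each, and the arrays cannot tell these apart.

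Lhx8, a LIM homeobox gene needed for early oocytes, had the largest fall among the members. Its signal was 217, 272, 279.5 and 272 on wild-type arrays 3, 4, 5 and 6. It was 10.5, 33.8, 26.9 and 18.6 for the pools labelled Sohlh1 knockout 2, 3, 4 and 5. It was 1.39, 53.7, 27.2 and 23.7 for those labelled Sohlh2 knockout 1, 3-1, 4 and 5. All 8 knockout arrays lay far below the wild-type arrays, and of the knockout arrays only Sohlh2 knockout 3-1 was above the filter value. Lhx8 therefore passed the filter through its wild-type arrays, and a gene of that kind could pass only by being higher there. The mean was 8.65% of wild type in Sohlh1 knockout (22.5 ± 10.1 against 260.0 ± 29.1, SD, n = 4) and 10.2% in Sohlh2 knockout (26.5 ± 21.4, SD, n = 4). Both knockout means lay under the filter value, so these percentages are uncertain. The wild-type mean was 5.35 times that value, which is no lower bound of the fall. The log2 fold change was -2.94 (95% interval -3.75 to -2.13, limma adjusted p = 0.000775) in Sohlh1 knockout and -2.93 (-3.74 to -2.12, limma adjusted p = 0.000946) in Sohlh2 knockout. Both calls were kept in all 29 alternative settings that were tried.

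By rank among all probe sets on the same array, Lhx8 stood between the 63.2 and 66.3 percentiles in wild type, between 17.6 and 33.4 in Sohlh1 knockout and between 1.23 and 42.0 in Sohlh2 knockout. The lowest of these ranks came from the array labelled Sohlh2 knockout 1, which has the highest 3' to 5' ratio. Without the arrays that go against their labels the log2 fold change was -2.90 in Sohlh1 knockout and -2.53 in Sohlh2 knockout.

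Figla encodes the helix-loop-helix factor that activates zona pellucida genes in oocytes. Its signal was 218, 257, 342 and 286 on the wild-type arrays, in the order used for Lhx8. It was 121, 73.3, 155 and 118 in Sohlh1 knockout and 184, 109.7, 161 and 126 in Sohlh2 knockout. The groups did not overlap with wild type, the closest being Sohlh2 knockout 1 at 184 and wild type 3 at 218, and all 12 arrays stayed above the filter value. The mean was 42.4% of wild type in Sohlh1 knockout (117 ± 33.5 against 276 ± 52.3, SD, n = 4), a log2 fold change of -1.17 (95% interval -1.64 to -0.69, limma adjusted p = 0.0142). In Sohlh2 knockout it was 52.7% of wild type (145 ± 33.4, SD, n = 4), with a log2 difference of -0.87 (-1.34 to -0.39) that missed the threshold (limma adjusted p = 0.0696). The Sohlh1 call was lost without wild type 5 (limma adjusted p = 0.0630) or wild type 6 (limma adjusted p = 0.0546). The Sohlh2 difference passed without the array labelled Sohlh2 knockout 1, at -0.98 (limma adjusted p = 0.0408), and without Sohlh1 knockout 3 (limma adjusted p = 0.0477).

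Nobox encodes a homeobox factor that activates Gdf9 and other genes of growing oocytes. Its signal was 89.2, 109, 166 and 116 in wild type. In Sohlh1 knockout it was 6.32, 59.8, 6.78 and 40.05, with only the array labelled Sohlh1 knockout 3 above the filter value. In Sohlh2 knockout it was 13.1, 74.1, 54.8 and 66.3, with the lowest value on the array labelled Sohlh2 knockout 1. Both knockouts lay wholly below wild type but spread widely, at 28.2 ± 26.3 and 52.0 ± 27.2 against 120.1 ± 32.4 (SD, n = 4). The Sohlh1 knockout mean lay under the filter value, so no ratio of means is given there. The wild-type mean was 2.47 times the filter value, and the Sohlh2 knockout mean was 43.3% of wild type. The log2 difference was -1.86 in Sohlh1 knockout (95% interval -2.85 to -0.87, limma adjusted p = 0.0525) and -1.12 in Sohlh2 knockout (-2.11 to -0.14, limma adjusted p = 0.296).

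The Sohlh1 difference of Nobox just missed the threshold and passed it in 10 of 29 alternative settings. It passed without Sohlh1 knockout 3 (limma adjusted p = 0.0322) and without Sohlh2 knockout 1 (limma adjusted p = 0.0135). Without the arrays that go against their labels it was -2.05 (limma adjusted p = 0.0173), and without both arrays of raised 3' to 5' ratio it was -1.59 (limma adjusted p = 0.0317). Without all 3 of these arrays it was -1.74 and did not pass (limma adjusted p = 0.0602). The Sohlh2 difference was -0.74 (limma adjusted p = 0.508) without the arrays that go against their labels. Since that fit leaves out the lowest Sohlh2 knockout array, the difference from wild type is smaller there.

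Dppa3, also called Stella, encodes a maternal protein that guards DNA methylation in the early embryo and is made in early germ cells too. Its signal was 112, 154, 146 and 188 in wild type. It was 77.6, 19.7, 59.3 and 55.5 in Sohlh1 knockout and 48.4, 61.8, 74.8 and 42.3 in Sohlh2 knockout. No knockout array reached the lowest wild-type array, and the lowest value of all was on the array labelled Sohlh1 knockout 3. The mean was 35.3% of wild type in Sohlh1 knockout (53.0 ± 24.2 against 150.1 ± 31.5, SD, n = 4), a log2 fold change of -1.36 (95% interval -2.00 to -0.72, limma adjusted p = 0.0318). It was 37.9% in Sohlh2 knockout (56.8 ± 14.5, SD, n = 4), with a log2 difference of -1.21 (-1.85 to -0.57, limma adjusted p = 0.0596).

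The Dppa3 call in Sohlh1 knockout depended on single arrays and on the filter, and was lost with no filter (limma adjusted p = 0.0561). It was lost without wild type 4, 5 or 6 (limma adjusted p = 0.0914, 0.0921 and 0.115) and without Sohlh1 knockout 3, 4 or 5 (limma adjusted p = 0.0599, 0.0600 and 0.0655). Its log2 difference stayed negative in each, at -1.06 without Sohlh1 knockout 3. The Sohlh2 difference passed the threshold in 6 of 29 alternative settings, among them the fits without Sohlh1 knockout 2 (limma adjusted p = 0.0499) or 3 (limma adjusted p = 0.0213).

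The other egg genes showed groups that overlap. Gdf9, a growth factor that oocytes send to the cells around them, was 94.9, 107, 111 and 79.4 in wild type, 86.2, 89.3, 89.5 and 71.1 in Sohlh1 knockout, and 95.2, 126, 74.4 and 81.7 in Sohlh2 knockout. All 12 arrays lay above the filter value, and both the highest and the lowest value were on knockout arrays. Its log2 difference was -0.19 in Sohlh1 knockout (95% interval -0.62 to 0.25, limma adjusted p = 0.714) and -0.06 in Sohlh2 knockout (-0.49 to 0.38, limma adjusted p = 0.933).

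Nlrp14, a gene of the NLR family known in eggs and testis, was 238, 178, 142 and 125 in wild type. It was 210.2, 150.4, 112 and 84.6 in Sohlh1 knockout and 198, 139, 115 and 121 in Sohlh2 knockout. The groups overlapped over most of their range, and all arrays were above the filter value. The log2 difference was -0.30 (95% interval -0.86 to 0.27, limma adjusted p = 0.648) in Sohlh1 knockout and -0.22 (-0.79 to 0.34, limma adjusted p = 0.761) in Sohlh2 knockout.

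Zp3, which encodes a glycoprotein of the egg coat, lay close to the filter value. Its signal was 62.3, 43.2, 96.7 and 124 in wild type, 48.4, 44.9, 63.9 and 30.8 in Sohlh1 knockout and 46.3, 69.5, 14.9 and 56.6 in Sohlh2 knockout. Only 6 of the 12 arrays exceeded 48.6, of which 3 were wild type, 1 was Sohlh1 knockout and 2 were Sohlh2 knockout. The means were 57.7% and 57.5% of wild type (81.5 ± 35.8, SD, n = 4), with log2 differences of -0.59 (95% interval -1.37 to 0.19, limma adjusted p = 0.480) and -0.67 (-1.45 to 0.11, limma adjusted p = 0.450). The intervals reach both a fall larger than that of Figla and a small rise, so these arrays exclude neither.

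Padi6, a protein of the egg's cytoplasmic lattices, and Oosp1, a protein secreted by oocytes, were near background. Padi6 was 29.5 to 50.7 in wild type, 4.42 to 50.2 in Sohlh1 knockout and 20.9 to 64.2 in Sohlh2 knockout, with 4 of 12 arrays above the filter value. Its log2 difference was -0.65 (95% interval -1.51 to 0.22, limma adjusted p = 0.483) and 0.03 (-0.83 to 0.89, limma adjusted p = 0.983). Oosp1 was 17.7 to 44.2, 16.2 to 39.5 and 15.6 to 31.7 in the 3 groups, with no array above the filter value and no test. No fold is given for Oosp1, since these signals cannot be told from background.

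Counted together, 3 of the 8 tested members fell in Sohlh1 knockout (Lhx8, Figla and Dppa3) and none rose, where 1.38% of all tested probe sets fell and 0.707% rose. In Sohlh2 knockout 1 of 8 fell (Lhx8) and none rose, where 0.944% of all tested probe sets fell and 0.606% rose. Lhx8 entered the tested set through its wild-type arrays and could be called only as lower, so its part in both counts is no support. At an unadjusted p under 0.05 there were 4 of 8 members in each knockout, against 4286 and 3870 of all 28694. All 4 knockout arrays lay below all wild-type arrays for 4 of the 9 measured members in each knockout, against 6.08% of tested probe sets in Sohlh1 knockout and 4.69% in Sohlh2 knockout. The 4 include Lhx8, whose part is no support here either, and the 9 include Oosp1, which was not tested. The members were chosen with results of these data known, so these counts describe them and are no test of the list. When each gene was represented by 1 probe set, Nobox passed in Sohlh1 knockout as well (limma adjusted p = 0.0257). In that fit Figla and Dppa3 passed in Sohlh2 knockout too (limma adjusted p = 0.0342 and 0.0322).

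The median log2 difference of the 9 measured members was -0.65 in Sohlh1 knockout and -0.67 in Sohlh2 knockout, against -0.01 and -0.0081 over all 45037 probe sets. The Sohlh1 median is the value of Padi6, which lay near background. Over the 7 members above background it was -1.17 and -0.87, with 7 of 7 values negative in each knockout, where 51.5% and 51.1% of all probe sets were negative. Those 7 include genes that lie above background mainly in wild type, so the count is a description. Both knockout comparisons use the same wild-type arrays, so their likeness is not independent.

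**Figure D3:**
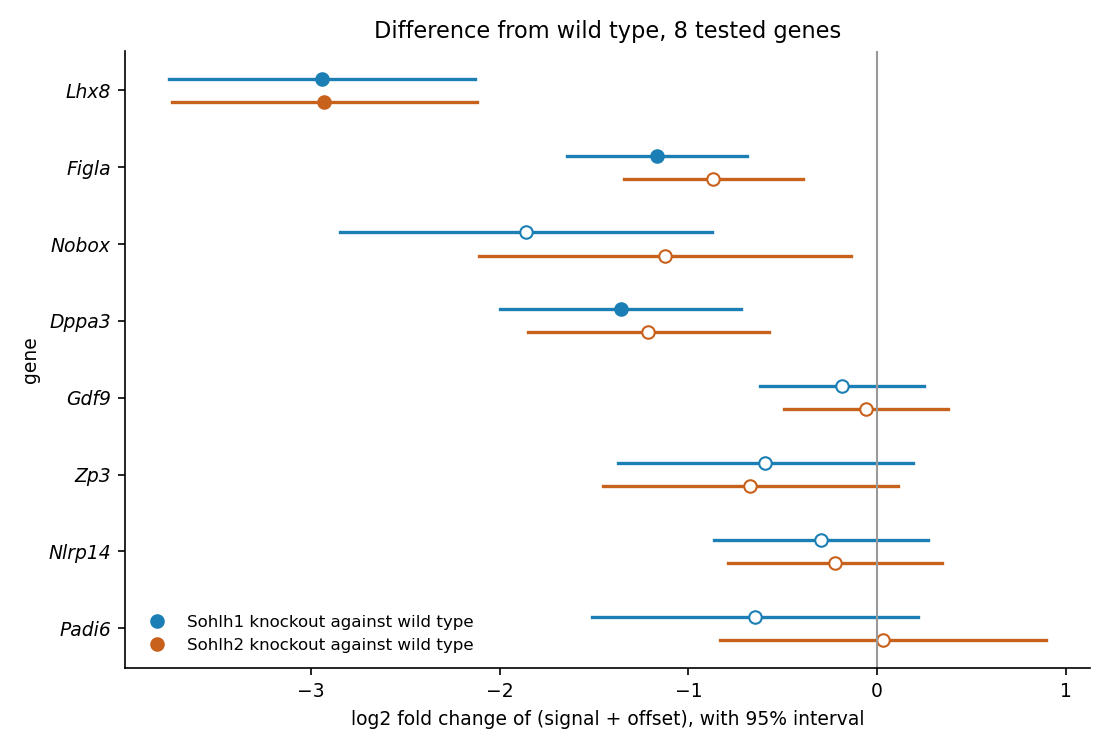
Log2 difference of each tested member from wild type with its 95% interval, in each knockout. Filled points have an adjusted p under 0.05. Lhx8 is lowest in both knockouts at -2.94 and -2.93, and Figla and Dppa3 are filled in Sohlh1 knockout.

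Between the knockouts no member passed the test, as none of all tested probe sets did (0%), and at an unadjusted p under 0.05 there were 0 of 8 members and 767 of all probe sets. The log2 difference of Sohlh2 minus Sohlh1 knockout was 0.01 for Lhx8 (95% interval -0.80 to 0.82), 0.30 for Figla (-0.18 to 0.77) and 0.15 for Dppa3 (-0.49 to 0.79). It was 0.74 for Nobox (-0.25 to 1.72), and 1.32 without the arrays that go against their labels (limma adjusted p = 0.701). It was 0.13 for Gdf9 (-0.31 to 0.56), 0.07 for Nlrp14 (-0.49 to 0.64), -0.08 for Zp3 (-0.86 to 0.70) and 0.68 for Padi6 (-0.19 to 1.54). Lhx8 was thus lower in both knockouts than in wild type, and no member told the knockouts apart. The intervals of Lhx8, Zp3 and Nobox are wide and do not show that the knockouts act alike.

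Without the arrays labelled Sohlh1 knockout 5 and Sohlh2 knockout 1, 4 members passed in Sohlh1 knockout and 1 in Sohlh2 knockout, where 860 and 458 of all 28694 probe sets passed in either direction. Leaving out both arrays whose 3' to 5' ratio was high gave counts of 4 and 2, beside 991 and 747 of all probe sets. Without all 3 of these arrays the counts were 3 and 2, beside 488 and 767. Lhx8 was among them each time. In these fits the Lhx8 log2 fold change ranged from -2.90 to -2.62 in Sohlh1 knockout and was -2.53 in Sohlh2 knockout.

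**Figure D4:**
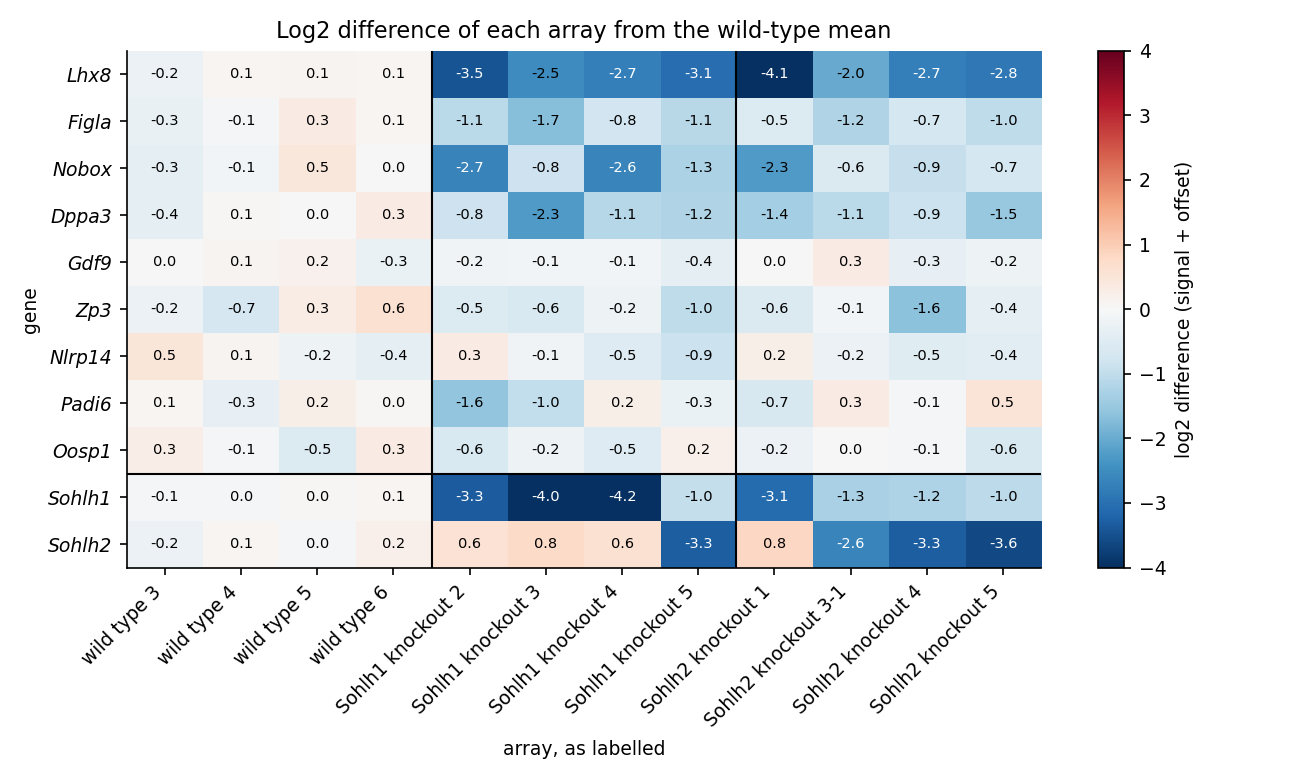
Log2 difference of each member on each of the 12 arrays from its own wild-type mean; columns are arrays by labelled group, and the targeted genes Sohlh1 and Sohlh2 stand below the black line. Lhx8, Figla, Nobox, Dppa3 and Zp3 are negative on all 8 knockout arrays, while Gdf9, Nlrp14 and Padi6 hold values on both sides of 0.

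The genes whose pattern over the 12 arrays was most like those of Lhx8, Figla, Nobox and Dppa3 were found by Pearson correlation of log2 values. For Lhx8 these were Cds2 (r = 0.98), Mcmbp (r = 0.97) and Timm8a1 (r = 0.97), and for Figla they were Brca1, Myo1c and Pank3 (r = 0.94 each). For Nobox they were Atm (r = 0.96), Nup133 (r = 0.94) and Foxm1 (r = 0.94), and for Dppa3 they were Rims1 (r = 0.94), Ttc19 (r = 0.93) and Tc2n (r = 0.93). These are descriptions over 12 arrays that share the step between wild type and knockout, chosen as the highest of all named genes. Rims1 had a mean signal of 180 ± 29.2 in wild type, 54.1 ± 28.4 in Sohlh1 knockout and 63.5 ± 39.7 in Sohlh2 knockout (SD, n = 4). Cds2 had 905 ± 90.7, 517 ± 46.7 and 548 ± 77.6 (SD, n = 4), a smaller step from a brighter signal.

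A list named other oocyte regulators held 8 genes, of which 7 had a probe set: Taf4b, Foxo3, Foxl2, Gata4, Zglp1, Sohlh1 and Sohlh2. Foxl2 is also on the list of ovarian granulosa genes used below, so the list is not of oocyte genes alone. Of their 12 tested probe sets 1 fell in Sohlh1 knockout, that of Sohlh1 itself (log2 fold change -3.12, limma adjusted p = 0.0118), beside 1.38% of all tested. In Sohlh2 knockout 0 passed by limma, with 5 at an unadjusted p under 0.05, against 3870 of all 28694. Without the arrays that go against their labels 2 passed in Sohlh2 knockout, from a list that includes the targeted genes Sohlh1 and Sohlh2. On the Sohlh2 knockout arrays left, labelled 3-1, 4 and 5, Sohlh2 was 157, 93.6 and 73.2 and Sohlh1 was 465, 494 and 563.

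A list of 47 other egg genes had probe sets for 40, and 30 of these 40 genes were near background, among them Zp1, Zp2, Bmp15, Nlrp5 and Mos, which were not tested. Of 11 tested probe sets 1 fell and 1 rose in each knockout. Of all tested probe sets 1.38% fell and 0.707% rose in Sohlh1 knockout, and 0.944% and 0.606% in Sohlh2 knockout. Uchl1, a ubiquitin hydrolase made in oocytes and also strongly in spermatogonia, fell from 8582 ± 750 in wild type to 3893 ± 397 in Sohlh1 knockout and 3911 ± 382 in Sohlh2 knockout (SD, n = 4). Its log2 fold change was -1.14 (limma adjusted p = 4.1e-05) and -1.13 (limma adjusted p = 4.5e-05), and it was called in all 29 alternative settings. Tcl1, a gene of eggs and early embryos, rose from 314 ± 33.98 to 502 ± 75.2 and 570 ± 114 (SD, n = 4), by 0.65 (limma adjusted p = 0.0440) and 0.82 (limma adjusted p = 0.0144) on the log2 scale. The Sohlh1 call of Tcl1 was kept in 14 of 29 alternative settings.

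Markers of the cells of the testis were measured beside the members. The summed signal of 8 germ cell genes was 27100 to 29397 in wild type, 24860 to 29207 in Sohlh1 knockout and 26536 to 29097 in Sohlh2 knockout, with 0 of 12 probe sets past limma's test (at an unadjusted p under 0.05, 5 in Sohlh1 and 3 in Sohlh2 knockout). The summed signal of 6 genes of differentiating spermatogonia, the cells entering the path to meiosis, was 10527 to 13747, 5304 to 6696 and 4980 to 7453. This list and its sum include the targeted genes Sohlh1 and Sohlh2. Of its 7 probe sets 4 fell in Sohlh1 knockout, 1 of them that of Sohlh1 itself, and 3 fell in Sohlh2 knockout, beside the 1.38% and 0.944% of all tested probe sets given above. Stra8 did not pass (limma adjusted p = 0.110 and 0.215). Kit, the receptor that marks these cells, fell from 1739 ± 176 to 453 ± 91.2 and 442 ± 76.6 (SD, n = 4) by 1 of its probe sets. Its other probe set had 452 ± 66.3, 157 ± 52.6 and 145 ± 94.4 and did not pass (limma adjusted p = 0.119 and 0.0549). The list of undifferentiated spermatogonia summed to 5609 to 6106, 5825 to 7992 and 6021 to 8599. Of its probe sets 3 and 4 of 16 were higher, beside 0.707% and 0.606% of all tested. They were of Pou5f1, Gfra1 and Id4, with another of Id4 in Sohlh2 knockout. The other probe sets of Gfra1 and Id4, and all those of Zbtb16, Etv5, Lin28a and Bcl6b, did not pass. The lower signals of Lhx8, Figla, Nobox and Dppa3 on knockout arrays thus lie beside a lower sum of the differentiating markers, whose part in the result was not tested.

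Ovarian granulosa genes, as markers of cells that would accompany oocytes, summed to 793 to 950 in wild type, 975 to 1202 in Sohlh1 knockout and 898 to 1068 in Sohlh2 knockout. By limma 0 of their 7 tested probe sets passed, and 2 in Sohlh1 and 1 in Sohlh2 knockout had an unadjusted p under 0.05. No gene of any list was at 0, those near background included, so this does not show that a marker was detected. The lists of Sertoli, Leydig, peritubular muscle, endothelial and leukocyte genes had 0 of 37 tested probe sets past the test in either knockout. At an unadjusted p under 0.05 there were 3 and 2, against 4286 and 3870 of all 28694. Of all tested probe sets 1.38% fell and 0.707% rose in Sohlh1 knockout, and 0.944% and 0.606% in Sohlh2 knockout. Counts of 0 in lists this short, the granulosa list included, are near those shares and do not show that these cells were unchanged. The list of spermatocytes and spermatids was dim, at 130 to 245 in wild type and at most 403 in the knockouts. Of its 6 tested probe sets 1 (of Ldhc) was higher in Sohlh2 knockout, beside 0.606% of all tested.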

How the data were processed

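Whole testes of 3 mouse groups were measured on 12 arrays; groups come from the sample titles. The deposited values are intensities on a linear scale, for which the submitters' processing notes name MAS5 and GCOS; their versions were not given in the sources used here, and no detection calls were used. Array medians were 76.6 to 90.8; precision is limited by how many arrays there are. Intensities became log2(value + 14.2), the 20th percentile of non-control values; 64 control probe sets were left out and nothing else was normalized. Probe sets above 48.6 on at least 4 of 12 arrays entered a fit in limma (version 3.58.1, under R 4.3.3; functions lmFit, contrasts.fit and eBayes with trend), two-sided, with genotype as the only term and Benjamini-Hochberg adjustment over 28694 probe sets; fell and rose mean an adjusted p under 0.05. The fit was tested on simulated data. Symbols came from the platform's annotation, which can be old. Named genes are the members, Sohlh1 and Sohlh2, called genes of the other oocyte and egg lists, and the 3 genes most like each of Lhx8, Figla, Nobox and Dppa3; marker genes named beside them, and the near-background egg genes named, were picked with their values already seen. The members and all lists were chosen with earlier results of these data known. Same-numbered arrays did not deviate together (correlations -0.12 to 0.10 over 9 pairs). Promoter windows come from RefSeq (GRCm38.p6), for 6 of 10 genes. Alternatives were other offsets, scalings, filters, choices of probe set, array weights, 2-group fits, the replicate block, a stricter threshold, and fits without single or doubted arrays.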

Additional observations from a re-analysis of the deposited data

Results flagged for a closer look

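Among 27 groups of 4 arrays (9 genes in 3 groups), 2 held an array that stood apart by Dixon's ratio, and chance alone gives about 1 in 20. Lhx8 on wild type 3 was 217 where the other wild-type arrays were 272 to 279.5 (ratio 0.887), still above every knockout array. Gdf9 on the array labelled Sohlh1 knockout 5, one of those whose targeted genes go against the label, was 71.1 where the others of its group were 86.2 to 89.5 (ratio 0.835).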

How the results depend on the processing

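The count of members past the threshold in Sohlh1 knockout was 3, fell to 1 at an adjusted p under 0.01, and was 1 to 4 when single arrays were left out. In Sohlh2 knockout it was 1. It was 3 with the log offset at the median, with 1 probe set for each gene and with array weights, and 2 in the fit of only 2 groups, without both arrays of raised 3' to 5' ratio and without all 3 doubted arrays, with 1 to 3 when single arrays were left out. Between the knockouts it was 0 in every setting. No called value changed sign. With the replicate number as a replicate block the counts were 3 in Sohlh1 knockout, and in Sohlh2 knockout 1 with 3-1 as its own number or 2 with 3-1 taken as 3; the numbers are not shown to pair the arrays. Over all probe sets the counts of 600 and 445 moved by more than 1.5 times with array weights (1227 and 1075), eBayes without trend (343 and 293), the block with 3-1 as its own number (338 and 98), an adjusted p under 0.01 (183 and 144) and without the arrays of high ratio (991 and 747). The Sohlh2 count was 283 in the 2-group fit and 767 without all 3 arrays. Without single arrays the lowest were 230 and 202 and the highest for Sohlh1 was 1238, without Sohlh2 knockout 1. Between the knockouts 9 and 11 passed without the arrays that go against their labels and without all 3. Signals near or below 48.6 limit what can be said of Zp3, Padi6 and Oosp1. On knockout arrays they also limit what can be said of the size of the difference for Lhx8, Nobox and Dppa3. Lists beyond the members were put through these settings after the data were seen.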
